A study of Mus musculus with 2 samples.

Results

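Oxidative phosphorylation, the last stage of cell respiration, is run by protein complexes whose subunits are encoded in 2 genomes, and 55 of its genes were followed here through the cells of the male mouse adrenal cortex. The genes were taken by symbol from the feature list shared by the libraries, which holds 31057 features, and all 55 had a feature. Of these, 42 lie on nuclear chromosomes and 13 on the mitochondrial chromosome, where they are all of the protein-coding genes. Atp5o carries 2 features, and the feature without any UMI (a unique molecular identifier, which stands for 1 captured RNA molecule) was left out.

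The cells came from adrenal glands of male mice aged 15 weeks with the genotype SF1-Cre; Rosa mTmG, described in the labels as WT. SF1-Cre is active in cells that make steroids and their forebears, and the reporter swaps membrane tdTomato for membrane GFP where Cre has acted. The study's 26 adrenals were dissociated, and DAPI-negative single cells positive for the DNA dye DyeCycle Ruby were sorted, so the reporter's GFP is not named among the sort criteria. Droplet libraries were made with a 3′ kit, version 3.1, and the 2 of them are called library 1 and library 2 here. Pooled animals cannot be told apart within a library and nothing read here says which animals went into which. The p-values therefore do not measure the spread between animals. In the main model they rest on how differences between cell groups varied between these libraries, with spread shared over genes.

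With a single labelled group, the comparisons lay between cells. Within each library, cells were grouped by their own CPM (UMIs per 1000000 UMIs of the cell) of 3 enzymes that are not among the 55 genes. Cyp11b2 makes aldosterone in the outer zona glomerulosa, Cyp11b1 makes corticosterone in the zona fasciculata, and Aldh1a1 oxidises retinaldehyde and was used to set a further group. Cyp11b2-high cells had at least 300 CPM of Cyp11b2 (238 cells in library 1 and 172 in library 2). Cyp11b1-high cells had at least 1000 CPM of Cyp11b1 (497 and 339 cells), and intermediate cells at least 300 (495 and 169). Aldh1a1-high cells had at least 500 CPM of Aldh1a1 (33 and 30 cells). Cells low in both Cyp11b enzymes made up the rest (3291 and 1166 cells), and 16 and 8 cells co-expressing both enzymes at 300 CPM or more were too few for testing.

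Complex I (NADH dehydrogenase) and complex II (succinate dehydrogenase) pass electrons from the breakdown of fuel to ubiquinone. Complex III hands them to cytochrome c, and complex IV passes them to oxygen. Complexes I, III and IV pump protons, and complex V uses the return flow to make ATP. The mitochondrial genes are transcribed as long joint RNAs that are then cut, so their RNAs are not independent of each other, while complex II and cytochrome c are built from nuclear genes alone. In adrenal cells the inner mitochondrial membrane also holds steroid enzymes, Cyp11a1, Cyp11b1 and Cyp11b2, which draw electrons from NADPH through Fdxr and Fdx1.

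The members held 13 nuclear and 7 mitochondrial genes of complex I, 4 nuclear genes of complex II, 6 nuclear and 1 mitochondrial of complex III, 1 of cytochrome c, 9 and 3 of complex IV and 9 and 2 of complex V. Ndufa4, named for complex I, was counted with complex IV, where the protein is found. The 2 shortest mitochondrial genes are shown because they gave some of the largest differences below. Both run into the next gene on the same strand, so reads from the shared bases cannot be assigned to 1 gene by position alone. Counts for overlapping genes on 1 strand therefore need not come from separate RNAs. In mt-Atp8 (chrM:7766-7969, mm10, plus strand, 204 bases, a subunit of complex V) the last 43 bases, in capitals, are also the start of mt-Atp6, and in mt-Nd4l (chrM:9877-10173, plus strand, 297 bases, a complex I membrane subunit) the last 7 bases, in capitals, are the start of mt-Nd4.
mt-Atp8: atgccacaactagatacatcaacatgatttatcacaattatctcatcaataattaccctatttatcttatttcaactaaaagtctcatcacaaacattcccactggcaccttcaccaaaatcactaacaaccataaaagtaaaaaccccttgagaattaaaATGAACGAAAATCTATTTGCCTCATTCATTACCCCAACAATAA
mt-Nd4l: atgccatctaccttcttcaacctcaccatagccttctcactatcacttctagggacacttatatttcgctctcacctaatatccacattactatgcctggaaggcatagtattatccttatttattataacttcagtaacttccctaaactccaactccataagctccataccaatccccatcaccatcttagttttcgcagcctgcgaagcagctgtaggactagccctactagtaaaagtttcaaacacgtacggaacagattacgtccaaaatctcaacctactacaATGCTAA
On the opposite strand, mt-Nd6 (chrM:13552-14070) shares 14 bases with mt-Nd5. For the nuclear members, the 250 bases before each start site were read from RefSeq (GRCm38.p6), where 32 of 42 genes matched. Genes with several start sites were counted if any of their windows held the letters. The letters GCATGCGC or their reverse complement are the core of the site of the respiratory factor NRF1. They were found for 4 of the 32 genes (12.5%), against 2.56% of 27025 genes. These were Cycs, Cox6a1, Ndufa8 and Sdhb. CCGGAAG, a site of ETS factors such as GABP, was in 6 (18.8%, against 7.83%), and AAGATGGC, a site of YY1, was in 1 (3.12%, against 1.83%). TCAAGGTCA, a site of SF1 and of the ERR receptors, was in 1, Atp5g3 (3.12%, against 0.422%). All were searched on both strands, and a match describes letters only. The NRF1 core was chosen after these promoters were seen, so its share against all genes is not a test. The 27025 genes were not matched to the members for expression or base content. The window of Cycs, which carries electrons from complex III to complex IV and was among the nuclear members with the largest falls below, is printed with its NRF1 core in capitals (chr6:50566570-50566819, minus strand).
Cycs: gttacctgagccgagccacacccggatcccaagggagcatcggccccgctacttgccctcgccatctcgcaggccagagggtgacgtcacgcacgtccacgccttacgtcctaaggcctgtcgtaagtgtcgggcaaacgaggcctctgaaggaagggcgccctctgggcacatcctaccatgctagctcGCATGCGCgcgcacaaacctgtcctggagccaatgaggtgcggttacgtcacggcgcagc

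Of 5040 barcodes in library 1 and 2288 in library 2, 4570 and 1884 were kept as cortical cells, with medians of 18286 and 15077 UMIs and totals over all barcodes of 92905273 and 28023733. The libraries shared 4 barcodes. In the tested groups Nr5a1 (SF1 itself) ranged from 166 to 330 CPM, the cholesterol carrier Star from 2320 to 4580 and the reporter's eGFP from 1480 to 4600. Cells removed for leukocyte markers also held Star, at 977 CPM in library 1 and 674 in library 2. Cells with at least 3 markers of 1 of the non-cortical lists below had been removed before these sums. Low sums of those lists were therefore partly set by that filter. Leukocyte markers summed to between 1.90 and 14.5 CPM over 19 genes, endothelial ones to between 11.0 and 31.9 over 12, stromal and capsular ones to between 96.5 and 176 over 13, chromaffin and neural ones to at most 7.13 over 13 and erythroid ones to at most 7.63 over 6. Ptprc, which defines leukocytes, had 4 UMIs in cells low in both enzymes, 1 in Cyp11b1-high cells and 0 in the other tested groups. Single markers of other cell types moved with the groups. The endothelial receptor Kdr had 138 UMIs in Cyp11b1-high and 8 in Cyp11b2-high cells (log2 difference 3.34 ± 0.48, adjusted p 2.7e-05 by edgeR), and was also higher in cells low in both enzymes than in Cyp11b2-high cells (2.61). Endothelial Eng had 13 UMIs in Cyp11b1-high and 0 in Cyp11b2-high cells, and the stromal and capsular markers tested, Rspo3 (-0.90) and Nr2f2 (-0.46), were lower in Cyp11b1-high cells. Median UMIs per cell fell from 21228 and 18886 in Cyp11b2-high cells to 16206 and 13646 in Cyp11b1-high cells, and the nuclear RNA Malat1 went the other way, from 20300 and 26500 CPM to 29200 and 39500. The part of Malat1 and of the summed markers in the results below was not tested. Results at matched depth are given below only for some counts and single calls, and for the mitochondrial share of Cyp11b2-high and Cyp11b1-high cells.

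Mitochondrially encoded RNA took its largest share of all UMIs in Cyp11b2-high cells, 7.63% in library 1 and 7.56% in library 2. The share was 6.23% and 5.99% in cells low in both enzymes, 5.94% and 5.20% in intermediate cells and 5.69% and 5.11% in Cyp11b1-high cells. This order was the same in each library, although intermediate and Cyp11b1-high cells lay closer to each other than the libraries did. Aldh1a1-high cells broke it, with 4.34% in library 1, the lowest share of all, and 6.66% in library 2, above every group but Cyp11b2-high. In the co-expressing cells the share was 6.84% and 6.14%, between the cells with either enzyme alone. Exact Clopper-Pearson 95% intervals, which cover counting error only, reached at most 0.076 percentage points to either side in the tested groups.

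**Figure D1:**
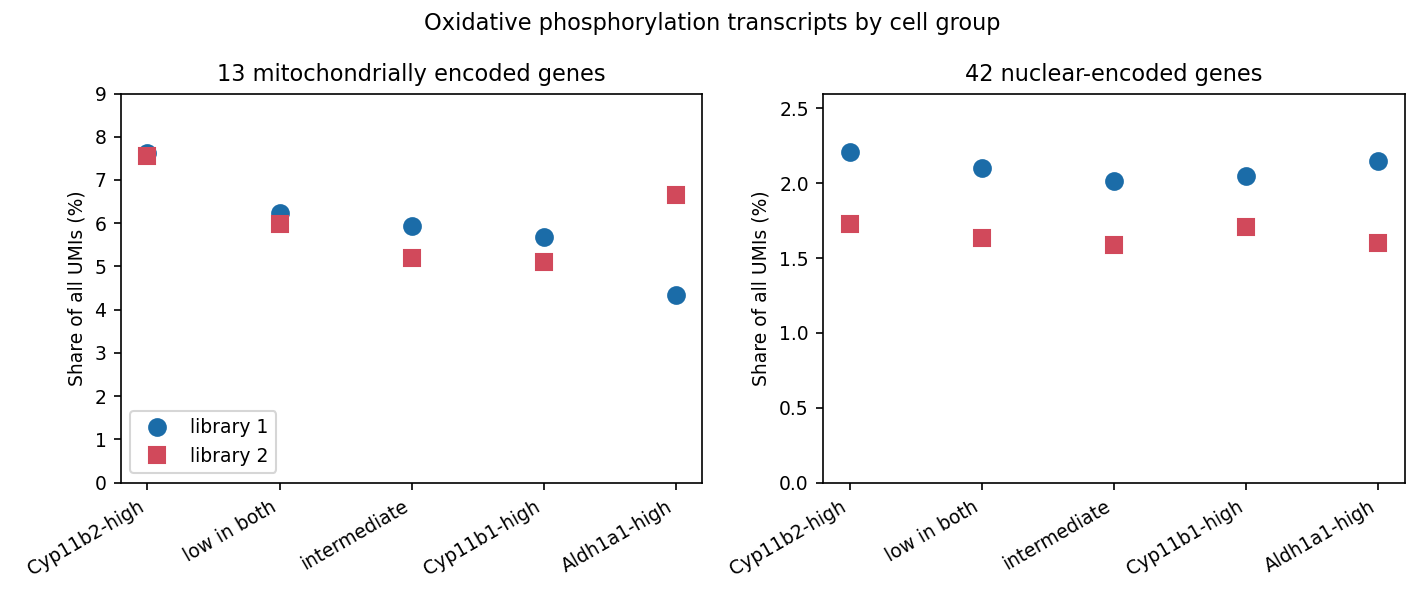
Share of all UMIs (%, y axis, from 0) from the 13 mitochondrial genes (left) and the 42 nuclear genes (right) in 5 cell groups (x axis); circles are library 1 and squares library 2. The mitochondrial share is highest in Cyp11b2-high cells (7.63% and 7.56%) and differs between the libraries most in Aldh1a1-high cells (4.34% and 6.66%), while the nuclear share differs more between libraries than between groups.

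The 42 nuclear genes together took 2.21% of UMIs in Cyp11b2-high cells of library 1 and 1.73% in library 2, and 2.05% and 1.71% in Cyp11b1-high cells. Over all groups their share ran from 2.02% to 2.21% in library 1 and from 1.59% to 1.75% in library 2. Their sum was thus nearly level between groups, and the mitochondrial sum over the nuclear sum went from 3.45 and 4.37 in Cyp11b2-high cells to 2.77 and 2.99 in Cyp11b1-high cells. In single cells of Cyp11b2-high type the middle of the distribution of mitochondrial shares (lower to upper quartile) was 6.22% to 8.91% in library 1 and 5.19% to 9.06% in library 2. In Cyp11b1-high cells it was 4.17% to 7.20% and 3.27% to 6.46%, so the groups overlapped cell by cell.

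The share also followed Cyp11b2 level when cells outside the Aldh1a1-high group were binned by it, with bins chosen after the data were seen. Cells without Cyp11b2 had 5.67% (2694 cells, library 1) and 5.16% (1250 cells, library 2), and cells above 0 and up to 150 CPM had 6.54% and 6.85%. From 150 to 300 CPM the share was 7.11% and 7.33%, and from 300 to 600 it was 7.64% and 7.38%. At 600 CPM and more it was 7.35% (46 cells) and 7.85% (58 cells), so only library 2 went on rising. Median depth was 16738 and 13949 UMIs in cells without Cyp11b2 20955 and 18572 at 300 to 600 CPM and 21806 and 6923 at 600 CPM and more, and the part of depth within these bins was not tested. By Cyp11b1 level the share was 6.37% and 6.23% without it and lowest at 1000 to 2500 CPM, 5.57% and 4.90%. It was higher again at 2500 CPM and more, 6.19% and 5.34%.

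Cyp11b1-high cells were compared with Cyp11b2-high cells, groups set by the grouping enzymes and not by position in the gland. Of 13 mitochondrial members, 11 were lower in Cyp11b1-high cells and 0 higher, and of 42 nuclear members 15 were lower and 0 higher. Of all 11692 genes tested, 16.2% were lower and 14.1% higher. The median log2 difference was -0.62 over the mitochondrial members and -0.14 over the nuclear members, against 0.01 over all genes. The test was edgeR's quasi-likelihood test on UMI sums per cell group and library with a term for library, with Benjamini-Hochberg adjustment over all genes and a threshold of 0.05 (n = 2 libraries). At an unadjusted p under 0.05 there were still 0 members higher, and DESeq2 called 0 higher, 16 nuclear and 9 mitochondrial members lower. Without the library term, edgeR called 0 members in either direction, with 2 mitochondrial members lower at an unadjusted p under 0.05. With each cell thinned to 5000 UMIs, 12 mitochondrial and 8 nuclear members were lower. Among cells with 10000 to 30000 UMIs, 12 mitochondrial and 19 nuclear members were lower. These ways of matching depth thus moved the nuclear count in opposite directions, each time in the direction of the count over all genes. Over all genes, 1893 were called lower in the main model, 948 after thinning and 1922 among cells with 10000 to 30000 UMIs.

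Levels below are normalised CPM, UMIs per 1000000 with a TMM scaling factor, and differences are on the log2 scale with their standard error. Among the complex I genes of the mitochondrial chromosome, mt-Nd4l stood at 2051 (library 1) and 1196 (library 2) in Cyp11b2-high cells. It stood at 975 and 626 in Cyp11b1-high cells. The groups did not overlap, although the library 2 level of the high group was close to the library 1 level of the low group. The difference was -1.01 ± 0.22 (adjusted p 0.0014), -1.07 in library 1 and -0.93 in library 2, and DESeq2 did not call it (adjusted p 0.0831). The level of mt-Nd3, a small subunit near the quinone site, went from 1214 and 678 to 759 and 404 (difference -0.71 ± 0.20, adjusted p 0.0101; DESeq2 0.271). For mt-Nd1, the membrane subunit that helps form the quinone site, levels of 4302 and 3603 stood against 3315 and 2487 (difference -0.45 ± 0.15, adjusted p 0.0323). That call was lost with cells of at most 15% mitochondrial UMIs (adjusted p 0.0578). The light-strand gene mt-Nd6 had levels of 91.7 and 112 against 69.6 and 81.2 (difference -0.43 ± 0.08, adjusted p 0.000357), and here library 2 was the higher library. The others, mt-Nd2, mt-Nd4 and mt-Nd5, fell by 0.66, 0.61 and 0.54, so all 7 complex I genes of this genome passed with edgeR. DESeq2 did not call mt-Nd4 (adjusted p 0.168).

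Of the nuclear genes of complex I, 3 of 13 were lower, with a median of -0.09 and differences from -0.58 to 0.05. Ndufa1, a small X-linked accessory subunit (chrX:37187588-37191163, mm10), had the largest difference of any nuclear member. It stood at 776 and 333 in Cyp11b2-high cells and at 512 and 228 in Cyp11b1-high cells. Each library showed the fall, and the libraries lay further apart than the groups. The difference was -0.58 ± 0.06 (adjusted p 6.95e-07), -0.60 and -0.55 by library. Ndufs1, the largest subunit, which carries iron-sulfur clusters, went from 149 and 156 to 112 and 132 (difference -0.34 ± 0.07, adjusted p 0.00152), and after thinning the difference was -0.11 and did not pass (adjusted p 0.626), nor did it with doubled limits (0.157). Ndufb5, an accessory subunit of the membrane arm, went from 678 and 520 to 539 and 429 (difference -0.30 ± 0.08, adjusted p 0.00761). The other 10, among them Ndufv1 and Ndufv2 of the NADH-oxidising end, did not pass.

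In complex II, which has no mitochondrial gene, Sdha and Sdhb differed in sign. Sdha, the flavoprotein that oxidises succinate, stood at 340 and 336 in Cyp11b2-high cells and 269 and 299 in Cyp11b1-high cells. All values of 1 group lay above those of the other, also across libraries, and the difference was -0.26 ± 0.06 (adjusted p 0.00403); after thinning it was -0.21 (adjusted p 0.114). Sdhb, the iron-sulfur subunit, stood at 263 and 188 against 264 and 232 (difference 0.13 ± 0.07, adjusted p 0.196), with 0.30 in library 2 and 0.00 in library 1. The membrane anchors Sdhc and Sdhd had differences of -0.12 and -0.11 and did not pass.

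In complex III, mt-Cytb, the only subunit of this complex in the mitochondrial genome, stood at 9545 and 7401 in Cyp11b2-high cells and at 4919 and 3607 in Cyp11b1-high cells. The lowest Cyp11b2-high value was above the highest Cyp11b1-high value, and the difference was -0.99 ± 0.21 (adjusted p 0.0015). Of its 6 nuclear partners 2 were lower, with a range from -0.40 to -0.04. Cyc1, the haem subunit that gives electrons to cytochrome c, went from 377 and 306 to 282 and 234 (difference -0.40 ± 0.07, adjusted p 0.000149). The Rieske iron-sulfur protein Uqcrfs1 went from 365 and 290 to 290 and 253 (difference -0.27 ± 0.06, adjusted p 0.00224), a call lost after thinning (adjusted p 0.11) and with doubled limits (0.132). Uqcrc1, a core subunit without a redox centre, stood at 169 and 123 against 157 and 129 (difference -0.04 ± 0.07) and did not pass. Cycs, the mobile carrier whose start region is printed above, fell beside its partner Cyc1, from 266 and 210 to 190 and 144 (difference -0.51 ± 0.07, adjusted p 1.88e-05).

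Complex IV had the largest number of nuclear members lower, 6 of 9, with differences from -0.43 to 0.05. Cox5a, a matrix-side subunit, stood at 483 and 410 against 344 and 319 (difference -0.43 ± 0.07, adjusted p 0.000109), without overlap across libraries. Cox6a1, Cox7a2, Ndufa4, Cox6b1 and Cox7b fell by 0.36, 0.33, 0.26, 0.26 and 0.21. None of the 6 passed with all group limits doubled, where Cox5a had a difference of -0.26 (adjusted p 0.0904) and Cox7b one of the other sign, 0.10 (adjusted p 0.514). Ndufa4 went from 1520 and 1003 to 1227 and 864 (adjusted p 0.0412), a call also lost after thinning (0.0972). The nuclear members that did not pass were Cox4i1, which stood at 1195 and 924 against 1146 and 970, Cox5b, and Cox8a at 1855 and 1024 against 1513 and 941 (difference -0.21 ± 0.11, adjusted p 0.175).

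The 3 catalytic-core subunits of complex IV come from the mitochondrial genome, and here only mt-Co2 passed, with a fall of 0.62. The subunit with the haem and copper centre, mt-Co1, stood at 13680 and 12630 against 12430 and 10040 (difference -0.23 ± 0.16, adjusted p 0.28), and mt-Co3 had a difference of -0.48 (adjusted p 0.0538). The call on mt-Co3 depended on the setting, since it passed with RLE size factors (adjusted p 0.0311), DESeq2 (0.0472) and thinning (0.0168). In each library mt-Co1 took more of the mitochondrial UMIs in Cyp11b1-high cells, 20.9% and 21.5%, than in Cyp11b2-high cells, 16.0% and 17.3%. Of mt-Cytb the opposite held, 8.29% and 7.72% against 11.2% and 10.1%.

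**Figure D2:**
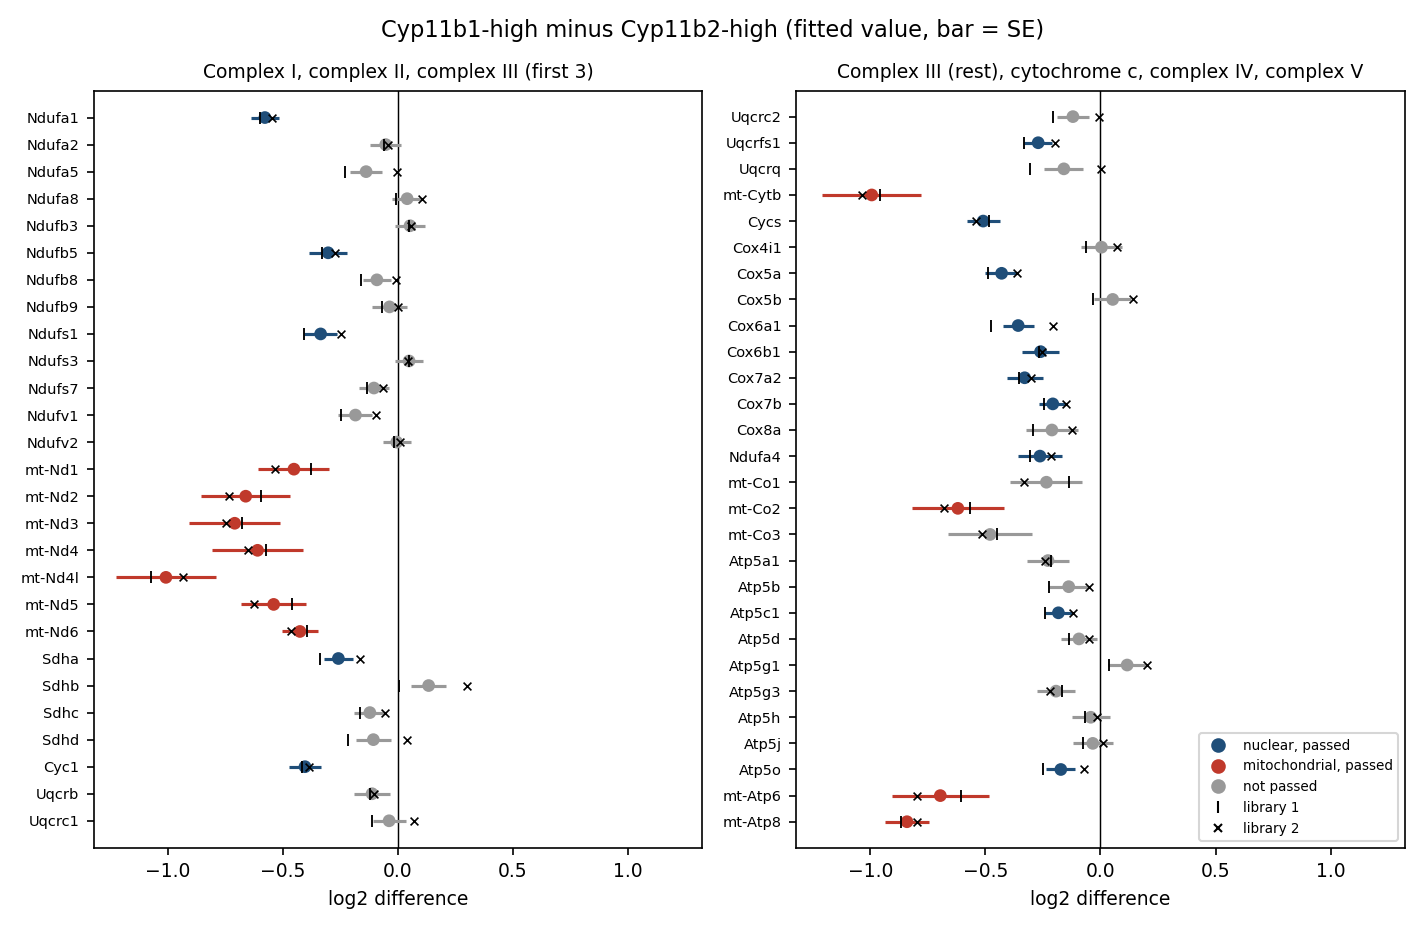
Log2 difference (x axis) of each of the 55 members (y axis, by complex) between Cyp11b1-high and Cyp11b2-high cells, where values below 0 are lower in Cyp11b1-high cells. Dots are the fitted differences with bars of 1 SE, coloured where the adjusted p was under 0.05 (blue nuclear, red mitochondrial) and grey otherwise, and small marks give each library alone; all 13 mitochondrial members lie below 0 in both libraries and no nuclear member above 0 is coloured.

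In complex V, both mitochondrial genes fell. These encode neighbouring parts of the proton channel side, mt-Atp6, which stood at 17360 and 15660 against 11410 and 9021 (difference -0.70 ± 0.21, adjusted p 0.0164), and mt-Atp8. The level of mt-Atp8 was 664 and 300 against 364 and 173 (difference -0.84 ± 0.10, adjusted p 1.99e-06). Its libraries lay further apart than its groups, and its difference was -0.87 in library 1 and -0.80 in library 2. Of 9 nuclear members, only Atp5c1 and Atp5o passed, with falls of 0.18 and 0.17, and neither passed after thinning or with doubled limits. The catalytic subunit Atp5b stood at 1003 and 757 against 859 and 732 (difference -0.14 ± 0.09). The genes for the same ring subunit went in different directions without passing, Atp5g1 from 618 and 419 to 635 and 481 (0.12 ± 0.08) and Atp5g3 from 674 and 526 to 600 and 452 (-0.19 ± 0.08, adjusted p 0.0871). Atp5g3 passed with DESeq2 (adjusted p 0.0252), and Atp5g1 passed as higher when limits were doubled (0.29, adjusted p 0.0418).

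Summed by complex (CPM without the TMM factor), the level in Cyp11b1-high over Cyp11b2-high cells was 0.719 (library 1) and 0.662 (library 2) for the mitochondrial genes of complex I. It was 0.553 and 0.515 for complex III, 0.838 and 0.755 for complex IV and 0.700 and 0.609 for complex V. For the nuclear genes it was 0.945 and 0.993 in complex I, 0.945 and 1.07 in complex II and 0.902 and 0.977 in complex III. In complexes IV and V it was 0.894 and 0.964, and 0.976 and 1.01. Cytochrome c, at 0.768 and 0.728, was the nuclear component nearest to the mitochondrial genes.

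Cells low in both Cyp11b enzymes were the largest group, and they were compared with the same Cyp11b2-high sums, so this comparison shares samples with the one above. In them 4 mitochondrial members were lower and 0 higher, and 8 nuclear members were lower and 0 higher, where 6.94% of all genes were lower and 5.64% higher. No member was higher at an unadjusted p under 0.05, while 8 mitochondrial and 17 nuclear members were lower by that measure, and DESeq2 called 2 and 9 lower and 0 higher. Without the library term edgeR called 0 members, also 0 at an unadjusted p under 0.05. The median difference was -0.42 over mitochondrial and -0.10 over nuclear members, against 0.02 over all genes.

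The mitochondrial members that passed were mt-Nd4l (1120 and 676, difference -0.85 ± 0.21, adjusted p 0.0112), mt-Atp8 (436 and 191, -0.63 ± 0.09, adjusted p 8.38e-05), mt-Nd5 (-0.47) and mt-Nd6 (70.7 and 89.1, -0.36 ± 0.07, adjusted p 0.00155). DESeq2 did not call mt-Nd4l (adjusted p 0.319) or mt-Nd5 (0.143). The edgeR call on mt-Nd5 was also lost with cells of at most 15% mitochondrial UMIs (adjusted p 0.0558). The levels of mt-Cytb were 6458 and 4967 (difference -0.57 ± 0.21, adjusted p 0.0929), and differences of -0.29 for mt-Nd1, -0.46 for mt-Nd3, -0.13 for mt-Co1 and -0.35 for mt-Atp6 did not pass. After thinning 6 mitochondrial members were lower, since mt-Nd3 (adjusted p 0.000783), mt-Cytb (0.00514) and mt-Nd4 (0.00793) then passed and mt-Nd6 did not (0.0757). Halved limits also called mt-Nd3 (0.0338), mt-Cytb (0.00962) and mt-Nd4 (0.0286). Among nuclear members Cycs (221 and 151, -0.36 ± 0.06, adjusted p 0.000863), Cox6a1 (592 and 313, -0.31 ± 0.06) and Ndufa1 (646 and 265, -0.29 ± 0.06) had the largest falls. Uqcrq, Cox5a, Ndufs1, Sdha and Cyc1 fell by 0.28, 0.28, 0.25, 0.23 and 0.20. With doubled limits Cox5a, Cyc1, Ndufa1, Ndufs1 and Uqcrq no longer passed, and after thinning Cyc1, Ndufs1 and Sdha did not, while Cox7a2 (adjusted p 0.00247) and Cox7b (0.0347) then did. Cyc1 was also lost by edgeR with all genes kept whatever their counts (adjusted p 0.0672). DESeq2 did not call Cyc1 either (adjusted p 0.143), and called Cox6b1 (0.037) and Cox7a2 (0.02) in addition. The fixed members Ndufb5, Ndufa4, Sdhb, Uqcrc1, Uqcrfs1, Cox4i1, Cox8a, Atp5b, Atp5g1 and Atp5g3 had differences from -0.17 to -0.03 and did not pass, and 0 of 9 complex V nuclear members did.

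Aldh1a1-high cells, which had Cyp11b1 at 2000 and 2530 CPM and 0 UMIs of Cyp11b2, were compared with Cyp11b1-high cells, the same sums as in the first comparison. Of 42 nuclear members, 2 were higher and 1 lower, and of 13 mitochondrial members 0 were higher and 1 lower, where 7.93% of all genes were higher and 8.14% lower. The median difference was 0.00 over the nuclear and 0.13 over the mitochondrial members, against -0.08 over all genes. At an unadjusted p under 0.05, 2 mitochondrial members were higher, and DESeq2 called 0 higher and 1 lower. Without the library term edgeR called 0 members, with 1 nuclear member higher at an unadjusted p under 0.05. Of all calls 927 were higher and 952 lower, against 1052 and 761 with RLE factors and 1134 and 648 with DESeq2. DESeq2 changes the model and the test as well as the scaling, and their parts were not told apart.

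The largest difference of any nuclear member in the 3 comparisons was that of Sdhb (chr4:140961203-140979193, mm10). It stood at 264 and 232 in Cyp11b1-high cells and at 483 and 406 in Aldh1a1-high cells. Both Aldh1a1-high values lay above every other group's, the next highest being 264. The difference was 0.84 ± 0.10 (adjusted p 1.17e-05), 0.87 in library 1 and 0.81 in library 2. It lost its call without the library term (0.84, adjusted p 0.0826). The other subunits of complex II did not move with it. Sdha stood at 255 and 318 (difference 0.00 ± 0.10, 95% interval -0.20 to 0.21), Sdhc at 158 and 100 (-0.10 ± 0.13) and Sdhd at 118 and 88.4 (-0.36 ± 0.16, adjusted p 0.137).

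**Figure D3:**
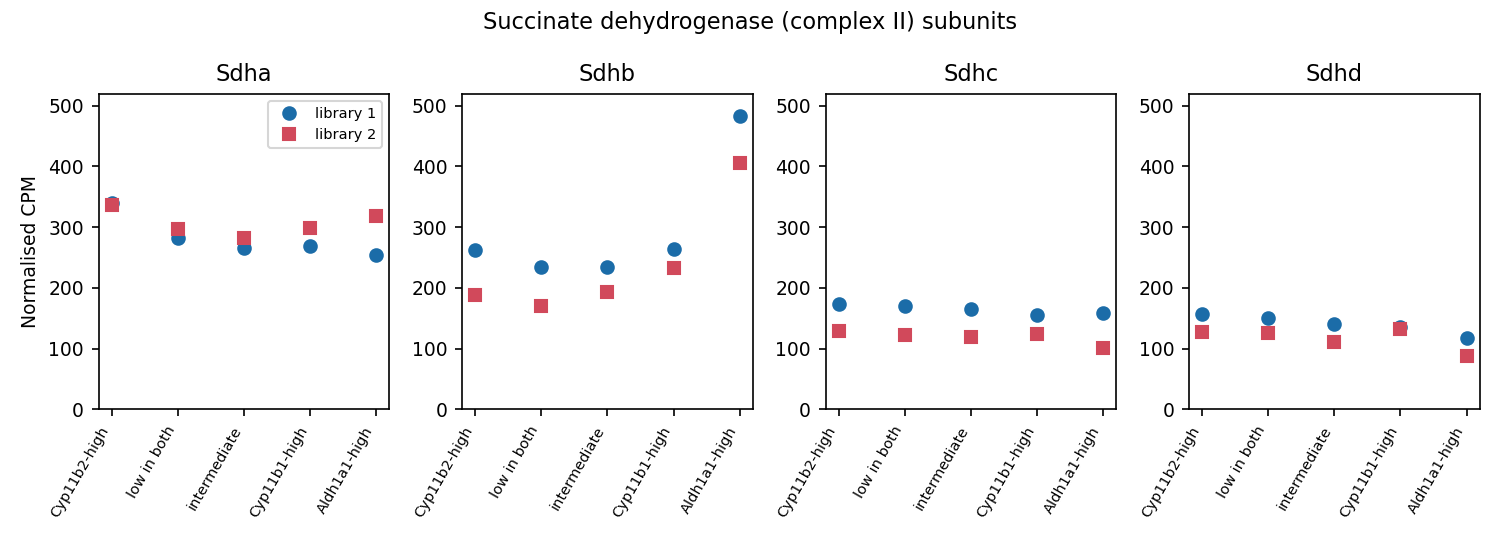
Normalised CPM (y axis, from 0) of the 4 complex II genes in 5 cell groups (x axis); circles are library 1 and squares library 2. Sdhb is highest in Aldh1a1-high cells of both libraries (483 and 406), while Sdha, Sdhc and Sdhd show no such rise.

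Uqcrq, a small complex III subunit (chr11:53427922-53430831), stood at 588 and 394 in Cyp11b1-high cells and at 863 and 526 in Aldh1a1-high cells (difference 0.48 ± 0.10, adjusted p 0.00328). Atp5g3, a gene for the ring subunit of complex V (chr2:73908447-73911326), went from 600 and 452 to 486 and 275 (difference -0.46 ± 0.11, adjusted p 0.00763), a call lost after thinning (adjusted p 0.0835). Of the other fixed nuclear members, none passed. Differences were 0.29 for Cycs, 0.18 for Cox5a, 0.15 for Cox4i1, 0.13 for Cox8a, 0.11 for Atp5b and 0.06 for Ndufs1. They were -0.01 for Uqcrc1, -0.04 for Ndufa4, -0.08 for Atp5g1, -0.14 for Cyc1, -0.17 for Uqcrfs1 and -0.28 for Ndufb5.

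The mitochondrial genes of Aldh1a1-high cells differed between the libraries. Against Cyp11b1-high cells, 11 of 13 were lower in library 1 and higher in library 2, with medians of -0.37 and 0.60. The exceptions, mt-Co1 and mt-Nd6, were lower in each library. The level of mt-Co1 went from 12430 and 10040 to 7361 and 7481 (difference -0.59 ± 0.16, adjusted p 0.0154), below every other group in either library. As a share of the mitochondrial UMIs it was 16.7% and 11.3% in Aldh1a1-high cells and 20.9% and 21.5% in Cyp11b1-high cells. The levels of mt-Nd6 were 50.2 and 74.1 against 69.6 and 81.2 (difference -0.30 ± 0.18, adjusted p 0.293). For mt-Cytb, 4805 and 8045 stood against 4919 and 3607 (0.63 ± 0.22, adjusted p 0.0574), and for mt-Nd4l 867 and 1496 against 975 and 626 (0.62 ± 0.24, adjusted p 0.0914). RLE factors (adjusted p 0.0301) and thinning (0.00481) called mt-Cytb higher, although its difference was -0.03 in library 1, and thinning also called mt-Nd4l (0.00347). The values for mt-Nd1, mt-Nd3, mt-Atp6 and mt-Atp8 were -0.10, 0.45, 0.13 and -0.02 and did not pass. Cell by cell, the quartiles of the mitochondrial share were 2.80% and 6.11% in the 33 cells of library 1 and 2.05% and 10.3% in the 30 cells of library 2. Malat1 in these cells was 29000 and 55800 CPM, so it also differed most between libraries here, and its part was not tested.

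**Figure D4:**
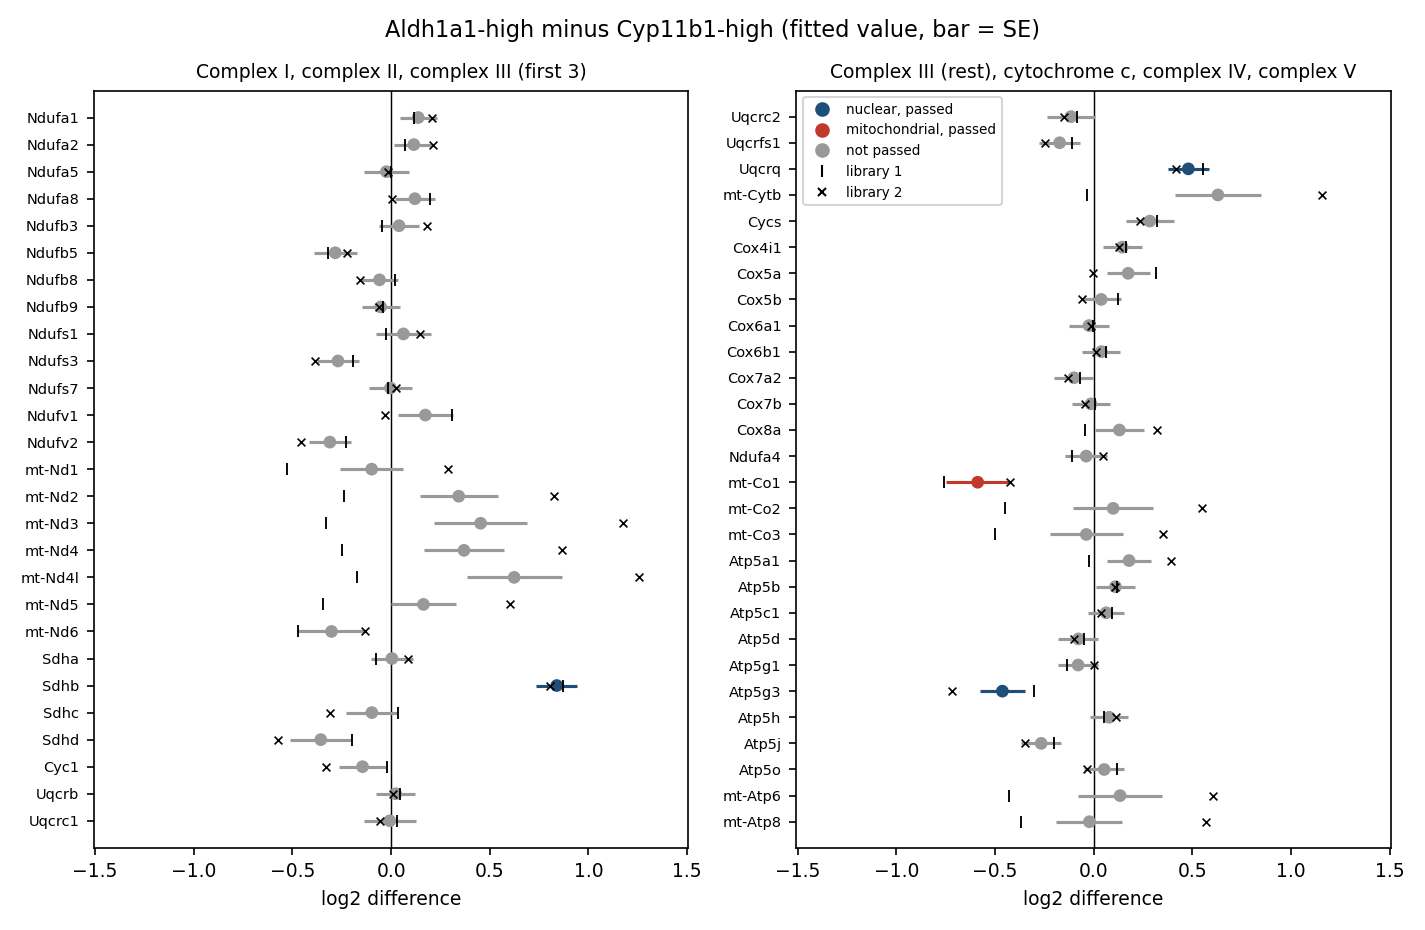
Log2 difference (x axis) of each of the 55 members (y axis, by complex) between Aldh1a1-high and Cyp11b1-high cells, with the same marks and colours as the plot of Cyp11b1-high cells. The library marks of most mitochondrial genes lie on opposite sides of 0, mt-Co1 lies below 0 in both libraries, and Sdhb (0.84) and Uqcrq (0.48) lie above 0 in both.

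The libraries themselves differed for these genes. Averaged over the 5 groups, the nuclear members were higher in library 1 by a median of 0.48 on the log2 scale, against 0.01 over all tested genes, and 39 of 42 were higher in library 1 in every group. The range ran from 1.22 for Ndufa1 and 1.06 for Ndufa5 to -0.18 for Ndufs1, the only nuclear member lower in every group. Among mitochondrial members, mt-Atp8 was higher in library 1 in every group (0.97) and mt-Nd6 lower in every group (-0.35). Members with a longest annotated transcript under 1000 bases had a median of 0.64 (18 genes), those of 1000 to 3000 bases 0.33 (20 genes) and those of 3000 bases or more 0.47 (4 genes). Other genes of at least 100 CPM, in the same length classes, had medians of 0.53 (192 genes), 0.29 (798 genes) and -0.00 (793 genes). The library term takes up such shifts where they are common to all groups.

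**Figure D5:**
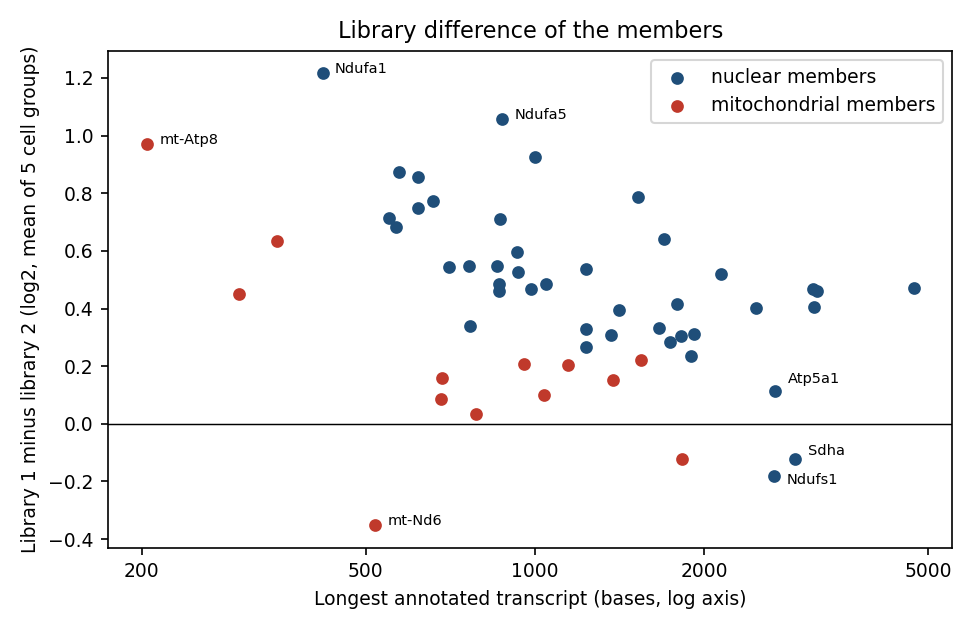
Library 1 minus library 2 (y axis, log2 of normalised CPM, mean of 5 cell groups) of each member against its longest annotated transcript (x axis, bases, log axis); blue points are nuclear and red points mitochondrial members. Most nuclear members lie above 0 (median 0.48), from Ndufa1 at 1.22 to Ndufs1 at -0.18.

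Genes that serve the same pathway were read from lists beside the members, and each count stands against the shares of all genes given above for the same comparison. Of 34 other subunits of the chain and of ATP synthase with a feature, 8 were lower and 1 higher in Cyp11b1-high than in Cyp11b2-high cells (median -0.11). Atp5l, a complex V subunit, fell by 0.27, while Ndufc2 of complex I rose by 0.33. In Aldh1a1-high against Cyp11b1-high cells, Cox6c (0.75 ± 0.12) and Uqcr10 (0.40 ± 0.11) of complexes IV and III rose and Ndufa11 fell by 0.32, with 31 of 34 not passing. Against Cyp11b2-high cells, cells low in both enzymes had 4 of 34 lower and 0 higher by edgeR, among them Ndufa9 of complex I (-0.23).

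Of 5 alternative or regulatory subunits tested, Atpif1, the inhibitor of ATP synthase, fell by 0.28 in Cyp11b1-high cells and by a further 0.33 in Aldh1a1-high cells, where Cox7a2l fell by 0.40. Cox6a2, the heart and muscle form of Cox6a1, had 61 UMIs in Cyp11b1-high cells and 1 in Cyp11b2-high cells, a ratio of 39.4 in CPM (exact 95% interval 6.81 to 1580, counting error only). Among cells low in both enzymes, Cox7a1 (0.82) and Cox6b2 (1.13) were higher than in Cyp11b2-high cells, with 3 of 5 not passing. Assembly factors gave 3 of 44 higher (6.82%, against 14.1% of all genes) and 4 lower (9.09%, against 16.2%) in Cyp11b1-high cells, among them the copper chaperone Cox17 (-0.49) and Cox18 (-0.48), and Coa7 (0.44) and the copper chaperone Sco2 (0.47) higher. In Aldh1a1-high cells 2 of 44 were higher (4.55%, against 7.93% of all genes) and 4 lower (9.09%, against 8.14%). Uqcc2, a complex III assembly factor, stood at 446 and 285 in Cyp11b1-high cells and at 845 and 621 in Aldh1a1-high cells (1.00 ± 0.09, adjusted p 4.25e-07), beside Ndufaf3 (0.55). Uqcc1, which works with Uqcc2, fell by 1.01 (18 UMIs in Aldh1a1-high cells), and Cox10 by 1.19 (10 UMIs). Cox17 was also the only 1 of 44 lower in cells low in both enzymes (-0.42).

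Enzymes of the tricarboxylic acid cycle, which supply the chain with NADH and succinate, were lower in Cyp11b1-high cells in 10 of 17 cases and higher in 0 by edgeR (median -0.27), led by Idh3a (-0.61 ± 0.08) and Dlst (-0.45 ± 0.10). Of the same 17, 8 were lower in cells low in both enzymes, led by Pdha1 (-0.40) and Ogdh (-0.38), with a median of -0.24. In Aldh1a1-high cells 3 of 17 were lower than in Cyp11b1-high cells, led by Sucla2 (-0.53) and Suclg2 (-0.43). The carriers that bring phosphate and adenine nucleotides to complex V gave 2 of 6 lower in Cyp11b1-high cells, Slc25a3 (-0.31) and Vdac1 (-0.30). Both fell again in Aldh1a1-high cells (-0.75 and -0.74), where 3 of 6 passed. Another 3 of 6 calls lay in cells low in both enzymes, among them Slc25a3 (-0.42) and Slc25a5 (-0.36).

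The electron donors of the steroid enzymes were read beside the chain. Fdx1, the ferredoxin that serves the mitochondrial steroid enzymes, stood at 8496 and 8482 in Cyp11b2-high cells, 3524 and 2392 in cells low in both, 2250 and 1721 in Cyp11b1-high cells and 3215 and 2789 in Aldh1a1-high cells. Its differences were -2.12 ± 0.14 (adjusted p 1.21e-09), -1.55 ± 0.14 (cells low in both) and 0.60 ± 0.14 (Aldh1a1-high against Cyp11b1-high). Of 4 donors tested, 2 were lower in Cyp11b1-high cells, with Idh2 at -0.35. In Aldh1a1-high cells Fdxr fell by 0.50 and the difference for Nnt, which makes mitochondrial NADPH, was -1.52 (6 UMIs in Aldh1a1-high cells), while Fdx1 alone rose.

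Of 14 transcriptional regulators of mitochondrial genes, 4 were lower and 0 higher by edgeR in Cyp11b1-high cells, led by Perm1, a muscle-associated partner of the PGC-1 coactivators (7.07 and 9.34 against 0.93 and 2.17, difference -2.49 ± 0.37, adjusted p 4.89e-05). Ppargc1a, the coactivator PGC-1alpha, stood at 10.0 and 11.7 against 5.57 and 4.98 (-0.999 ± 0.24, adjusted p 0.00356). It had 0 UMIs in Aldh1a1-high cells, at least 1.68-fold lower than in Cyp11b1-high cells with a floor of 3 UMIs over the group, while Hif1a rose by 0.56. Perm1 fell by 0.82 in cells low in both enzymes, and 13 of 14 did not pass. Factors for the upkeep of mitochondrial DNA and RNA gave 3 of 27 higher and 3 lower in Cyp11b1-high cells (11.1% each, against 14.1% and 16.2% of all genes), with Tfb1m (0.99) and Ssbp1 (0.29) higher and the RNA-binding protein Grsf1 (-0.41) and the RNA-cutting enzyme Elac2 (-0.38) lower. In Aldh1a1-high cells 2 of 27 were lower (7.41%, against 8.14% of all genes). These were the RNA-processing factors Trmt10c (-1.15, 18 UMIs in Aldh1a1-high cells) and Pnpt1 (-1.06, 20 UMIs). Ssbp1 was higher (0.21) and Grsf1 lower (-0.29) in cells low in both enzymes. Mitochondrial ribosomal proteins gave 4 of 40 higher (10.0%, against 14.1%) and 3 lower (7.5%, against 16.2%) in Cyp11b1-high cells, with Mrpl36 (0.37) and Mrpl33 (0.36) against Mrps6 (-0.42) and Mrps18a (-0.39). In Aldh1a1-high cells 1 of 40 was higher (2.5%, against 7.93%), Mrpl33 (0.96). There 5 were lower (12.5%, against 8.14%), led by Mrpl3 (-0.67) and Mrps18c (-0.54). In cells low in both, 1 was lower (2.5%, against 6.94%), Mrpl4 (-0.24).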

How the data were processed

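The authors deposited UMI counts for each gene in each barcode, made with Cell Ranger 3.1.0, per the file headers, on build mm10, per the submitters' processing notes. Barcodes with under 1000 UMIs or 500 genes (120 in library 1 and 268 in library 2) or over 30% mitochondrial UMIs (a further 28 and 8) were removed, as were the highest scrublet scores (scanpy 1.11.5, 0.8% per 1000 barcodes; 203 and 42 cells) and 119 and 86 cells with at least 3 markers of a non-cortical type at 2 or more UMIs each. A gene needed 2 UMIs in a cell to pass a grouping limit, and free RNA was not subtracted.

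UMIs were summed per cell group and library where each library had at least 10 cells, which gave 10 sums from 5 groups. One edgeR 4.0.16 model (R 4.3.3, limma 3.58.1, TMM) with terms for group and library was fitted to 11692 genes without Cyp11b2, Cyp11b1 and Aldh1a1, with 4 residual and 14.3 prior degrees of freedom. All 55 members passed the filter on low counts. Groups of 1 library share its suspension, which pairs their sums. The fit was also run on simulated sums with known changes. Those sums had the same spread for every gene, so the run does not give the error rate in these data. Alternatives were DESeq2 1.42.0, RLE factors, all genes kept whatever their counts, a model without library, cells thinned to 5000 UMIs, a depth window, other mitochondrial limits, mitochondrial UMIs left out, doublets kept and group limits doubled or halved. Positions came from GENCODE vM21 (mm10), where 56 of 56 member identifiers matched.

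The members and lists were chosen with earlier results of these data known. Named were, per comparison, the 3 largest calls of equal sign in each library per direction and genome, 23 members in every comparison, and up to 2 genes per direction of each other list, except for an item not reported here. The 8-base NRF1 core was chosen after the promoters were seen.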

Additional observations from a re-analysis of the deposited data

How the results depend on the processing

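No alternative turned the sign of a called difference among the named members, but Cox7b, called lower, had 0.10 with doubled limits. In Cyp11b1-high against Cyp11b2-high cells 3545 genes passed, against 758 without the library term, 1697 after thinning and 2314 with doubled limits. The 15 nuclear members, all lower, became 0, 8 and 6 under these settings. With doubled limits the 6 were 5 lower and 1 higher, Atp5g1, which was not among the 15. The 11 mitochondrial members became 0 without the library term, that is without the replicate block. In Aldh1a1-high against Cyp11b1-high cells 1879 genes passed, against 624 without the block and 706 after thinning. The 3 nuclear members became 5 without a low-count filter (Ndufb5 and Ndufv2 added) and 0 without the block. The 1 mitochondrial member, mt-Co1, became 2 with RLE factors, 5 without a low-count filter, 0 without the block, and 3 after thinning, at 10000 to 30000 UMIs, and with limits doubled or halved (mt-Cytb and mt-Nd4l added, which without these changes were higher in library 2 alone). In cells low in both enzymes against Cyp11b2-high cells 1471 genes passed, against 838 with DESeq2, 12 without the block, 601 after thinning and 703 with doubled limits. The 8 nuclear members became 0 without the block and 3 with doubled limits. The 4 mitochondrial members became 2 with DESeq2, 9 without a low-count filter, 0 without the block and 7 with halved limits. The mean mitochondrial share of Cyp11b2-high cells was 7.66% after thinning, 7.48% at 10000 to 30000 UMIs, 7.41% with at most 15% mitochondrial UMIs, and 7.70% and 7.43% with limits doubled and halved. That of Cyp11b1-high cells was 5.43% after thinning and 5.18% at 10000 to 30000 UMIs. The cause of these changes was not tested. Leaving out a library leaves no residual degrees of freedom, so each library alone gives a value with no test.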

Other observations

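Genes of glycolysis, another route to ATP, were read from a list. In Cyp11b1-high cells 7 of 16 were lower (43.8%, against 16.2% of all genes), 1 was higher (6.25%, against 14.1%) and 8 did not pass, compared with Cyp11b2-high cells (median -0.18). The lactate dehydrogenase genes Ldhb (730 and 633 normalised CPM in Cyp11b2-high and 338 and 271 in Cyp11b1-high cells, difference -1.17 ± 0.09) and Ldha (-0.72 ± 0.07) were the largest falls. Hk2, a hexokinase that binds mitochondria, had 0 UMIs in Cyp11b2-high cells and was at least 3.88-fold higher in Cyp11b1-high cells with a floor of 3 UMIs over the group. It rose further in Aldh1a1-high cells (14 UMIs), to 15.4 and 14.3 normalised CPM from 1.19 and 1.95 (3.31 ± 0.70). There 4 of 16 were higher (25%, against 7.93% of all genes), with Pfkl at 1.32. Another 4 were lower (25%, against 8.14%), with Pfkp at -2.14 (12 UMIs in Aldh1a1-high cells) and Ldhb at -1.25. Cells low in both enzymes had 5 of 16 lower than Cyp11b2-high cells (31.2%, against 6.94%), led by Aldoc (-0.92) and Pgk1 (-0.47), and 0 higher by edgeR.

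Of 15 genes known to respond to tissue dissociation, 6 were higher in Cyp11b1-high than in Cyp11b2-high cells (40.0%, against 14.1% of all genes) and 9 did not pass, led by Ier3 (1.14) and Jun (1.14), with 0 lower by edgeR. Their part in the member results was not tested. In Aldh1a1-high cells only Jun was higher (1.04), 1 of 15 (6.67%, against 7.93% of all genes). There 4 were lower (26.7%, against 8.14%), led by Dusp1 (-2.70, 5 UMIs in these cells) and Btg2 (-1.55), with 10 not passing. Cells low in both enzymes had 4 higher (26.7%, against 5.64%), led by Egr1 (0.98), and 1 lower (6.67%, against 6.94%), Hspa1b (-0.44), with 10 not passing.

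Over the 10 sums, centred per library, the genes outside the members whose log2 level was most like the summed mitochondrial level were Hoxd8 (Pearson's r 0.995), Gabarapl2 (0.982), Arhgef11 (0.979), Ckap4 (0.975) and Slc36a4 (0.972), picked as the highest of all tested genes. Of the nuclear members, Ndufs1 (0.910), Sdha (0.886) and Ndufa4 (0.884) were nearest, and Ndufa8 (-0.41), Sdhb (-0.26) and Cox5b (-0.10) had negative values. The summed nuclear level had r 0.772. These values share their libraries and scaling and describe 10 sums only. Cells removed for leukocyte markers had mitochondrial shares of 3.64% and 3.74%, below every cortical group.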
